A study of Homo sapiens with 12 samples.

Results

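HEK293T cells, a line derived from human embryonic kidney, that lacked 4EHP or lacked GIGYF1 and GIGYF2 were pooled and set against wild-type (WT) HEK293T cells. The comparison used all 12 samples of the series. RNA-seq, which counts mRNA fragments, had 2 libraries of 4EHP-null cells, 2 of GIGYF1/2-null cells and 2 of WT cells, and Ribo-seq, which counts the mRNA fragments that ribosomes protect (footprints), had the same numbers. The cells received no treatment and were harvested 24 h after plating. The labels name the genotypes only as 4EHP-null, GIGYF1/2-null and WT, and give neither the edited alleles nor whether a line is 1 clone, so a difference that 1 clone carries and a difference that the deletion makes cannot be told apart. Genes were reported where all 4 knockout libraries lay above both WT libraries, or all 4 lay below both, in CPM (read counts scaled to an equal library total). Such a gene is called one-sided here. Of the 27011 genes counted, 15637 passed the filter on low counts in RNA-seq and 14722 in Ribo-seq, at 26143118 to 38175701 counts per RNA-seq library and 6536493 to 10816080 counts per Ribo-seq library.

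4EHP, the product of EIF4E2, binds the mRNA cap without recruiting the scaffold that starts translation. It works with the GIGYF proteins, which bind it and are known to bring it to selected mRNAs together with RNA-binding proteins and decay factors, so that those mRNAs are translated less and decay sooner. The comparison asks which mRNAs sit at another level when either part of the complex is missing, in a study of mRNA decay coupled to translation.

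The deleted genes were examined first. EIF4E2 mRNA had 51 and 46.7 CPM in 4EHP-null cells, 131 and 137 CPM in GIGYF1/2-null cells, and 123 and 123 CPM in WT cells, so that both 4EHP-null libraries lay far below the other 4. GIGYF1 mRNA had 38.9 and 39.3 CPM in 4EHP-null cells, 22.4 and 26 CPM in GIGYF1/2-null cells, and 41.2 and 40.8 CPM in WT cells, and all 4 knockout libraries lay below WT although the change was almost all in GIGYF1/2-null cells (log2 change -0.76 there and -0.07 in 4EHP-null cells). GIGYF2 mRNA had 68 and 68.8 CPM in 4EHP-null cells, 96.7 and 81.8 CPM in GIGYF1/2-null cells, and 81.2 and 66.1 CPM in WT cells, and its groups overlapped, so that the GIGYF2 transcript level did not mark the line. GIGYF1 also lay in a stretch of neighbouring genes that moved together (a run, defined below). The part of its neighbourhood in its fall was not tested. Read counts over a whole gene do not show whether a transcript still encodes protein. Across the other 13 genes of the complex and its partners none was called and one-sided.

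Averaged over both knockouts, edgeR called 1412 of the tested mRNAs (9.03%) at an adjusted p under 0.05, 644 higher (4.12%) and 768 lower (4.91%). Of these, 550 mRNAs were higher and one-sided and 514 were lower and one-sided, which is 3.52% and 3.29% of the tested genes. Before the test, 1748 genes (11.2%) lay above WT in all 4 knockout libraries and 1634 genes (10.4%) lay below. Most changes were small. The median log2 change was 0.54 among the higher genes and -0.41 among the lower ones, against -0.01 over all tested genes. A change of at least 2-fold in each of the knockouts was found for 59 of the higher and 25 of the lower genes.

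The test measured the mean of these 2 knockout lines against the spread within genotypes, and the lines differed from each other more than their mean differed from WT. A total of 3820 genes (24.4%) differed between GIGYF1/2-null and 4EHP-null cells, and the median absolute log2 difference was 0.23 between the knockouts and 0.14 between their mean and WT. When the 4 knockout libraries were treated as 1 group, so that the spread between the lines counted as error, edgeR called 0 genes in RNA-seq (1540 at an unadjusted p under 0.05, smallest adjusted p = 0.0866), limma-voom called 0 (1532 unadjusted) and DESeq2 called 198, of which 145 were higher and 53 lower. Of the 1064 one-sided called genes, 906 had an unadjusted p under 0.05 in that edgeR fit. The counts also rested on the WT libraries. Without WT replicate 1 the one-sided called genes were 137 higher and 133 lower, and without WT replicate 2 they were 154 and 121.

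Among the one-sided called genes the size of the change also differed between the lines for many. It did for 172 of the 550 higher genes, with the larger change in 4EHP-null cells for 99 and in GIGYF1/2-null cells for 73, and for 231 of the 514 lower genes, with 105 and 126 split the same way. A further 94 higher and 254 lower calls were not one-sided, and 339 of those 348 differed between the lines. BST2, an interferon-induced membrane protein that tethers virions, was the clearest such case, with 77.4 and 84 CPM in 4EHP-null cells, 4.4 and 4.56 CPM in GIGYF1/2-null cells, and 4.81 and 3.87 CPM in WT cells. Just inside the one-sided boundary lay HIPK2, a nuclear kinase, at 122 and 119.7 CPM in 4EHP-null cells, 85.8 and 82.7 CPM in GIGYF1/2-null cells, and 133 and 122 CPM in WT cells, where the nearest libraries round to the same level. Just outside it lay GJA3, a gap junction protein, at 10.2 and 9.22 CPM in 4EHP-null cells, 5.98 and 5.85 CPM in GIGYF1/2-null cells, and 10.2 and 10.5 CPM in WT cells, where 1 knockout library passed WT replicate 1 by less than the rounding. The knockouts were compared with the same 2 WT libraries, so the plot of one line against the other shows points drawn towards the diagonal by shared controls as well.

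**Figure D1:**
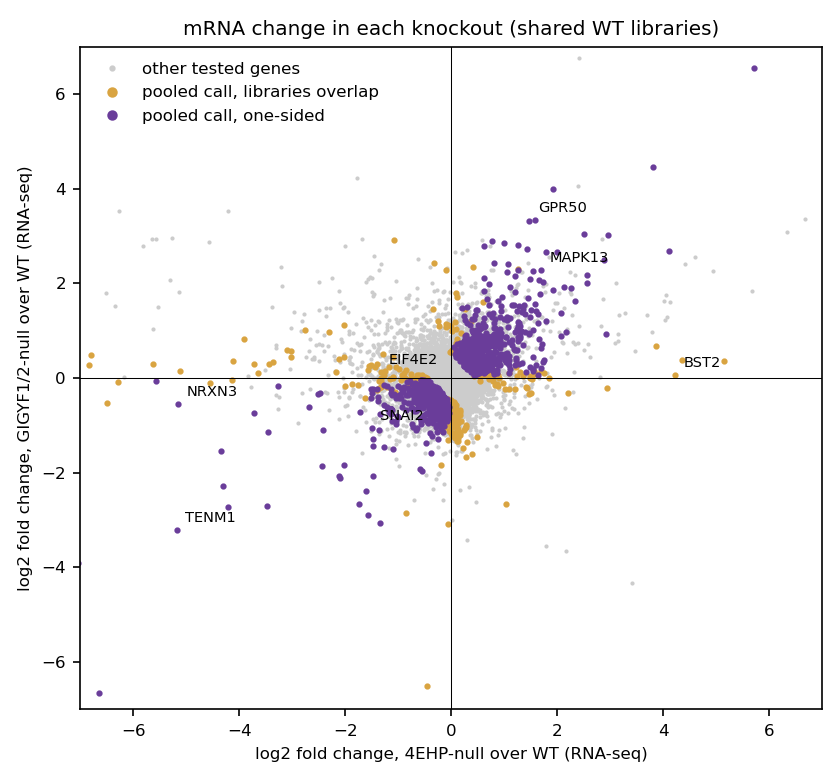
Each point is 1 gene tested in RNA-seq, with its log2 fold change in 4EHP-null over WT cells on the x axis and in GIGYF1/2-null over WT cells on the y axis. Purple points are the 1064 called one-sided genes, orange points the 348 called genes whose libraries overlapped, and grey points the rest; 6 genes lie outside the axes, and changes of genes at 0 counts in a group depend on the fit's prior count.

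The 12 genes with the largest rise shared by both lines were MAPK13, FHAD1, GPR50, ANK1, RPRM, OAS3, NLRC5, DPP4, NPNT, LGALS3BP, DTX3 and CRABP2. They were ranked by the smaller of the changes in the lines, which ran from 1.05 to 1.69 on the log2 scale. MAPK13, a stress-activated kinase of the p38 family, had 10.1 and 8.53 CPM in 4EHP-null cells, 13.7 and 14.3 CPM in GIGYF1/2-null cells, and 3.49 and 2.34 CPM in WT cells. Its mean in the knockouts was 3.96-fold that in WT (log2 change 1.99 ± 0.17 SE, adjusted p = 2.58e-05). GPR50, a melatonin receptor homolog that does not bind melatonin, had 15.3 and 17.4 CPM in 4EHP-null cells, 56.2 and 61.7 CPM in GIGYF1/2-null cells, and 5.76 and 5.94 CPM in WT cells. Every knockout library exceeded WT, with GIGYF1/2-null cells far above 4EHP-null cells (difference 1.85 on the log2 scale, adjusted p = 3.61e-07). RPRM, which encodes the p53-inducible cell cycle inhibitor Reprimo, had 3.76 and 4.99 CPM in 4EHP-null cells, 11 and 14.3 CPM in GIGYF1/2-null cells, and 1.9 and 1.72 CPM in WT cells, again higher in GIGYF1/2-null cells than in 4EHP-null cells.

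Other members of this set stood at nearly the same level in both lines. DPP4, a cell-surface peptidase, had 9.72 and 11.2 CPM in 4EHP-null cells, 10.3 and 9.09 CPM in GIGYF1/2-null cells, and 4.81 and 3.87 CPM in WT cells. DTX3, a ubiquitin ligase of the Deltex family, had 13.1 and 12.4 CPM in 4EHP-null cells, 12.9 and 12.9 CPM in GIGYF1/2-null cells, and 5.76 and 6.37 CPM in WT cells. For both genes the lines overlapped with each other, and their mean was 2.32-fold and 2.11-fold the WT level. CRABP2, which carries retinoic acid within the cell, had 41.6 and 45 CPM in 4EHP-null cells, 33.6 and 41.8 CPM in GIGYF1/2-null cells, and 18.6 and 17.9 CPM in WT cells (log2 change 1.15 ± 0.11, adjusted p = 7.33e-05). ANK1, an ankyrin that links membrane proteins to the spectrin skeleton, had 8.1 and 10.1 CPM in 4EHP-null cells, 7.95 and 9.27 CPM in GIGYF1/2-null cells, and 2.75 and 3.6 CPM in WT cells. FHAD1, a protein with a forkhead-associated domain, had 12.8 and 15.7 CPM in 4EHP-null cells, 13.2 and 14.9 CPM in GIGYF1/2-null cells, and 4.71 and 4.84 CPM in WT cells. In these 3 genes, too, the libraries of the knockouts overlapped with each other and none reached WT. NPNT, a matrix ligand of integrins, had 18.1 and 18.9 CPM in 4EHP-null cells, 12.9 and 13.7 CPM in GIGYF1/2-null cells, and 6.44 and 5.51 CPM in WT cells, and NLRC5, the transactivator of MHC class I genes, had 5.99 and 5.83 CPM in 4EHP-null cells, 6.71 and 8.57 CPM in GIGYF1/2-null cells, and 2.47 and 2.72 CPM in WT cells. The difference between the lines was called for 6 of the 12 genes, namely MAPK13, GPR50, RPRM, OAS3, NPNT and LGALS3BP. All 12 calls held when any 1 library was left out.

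**Figure D2:**
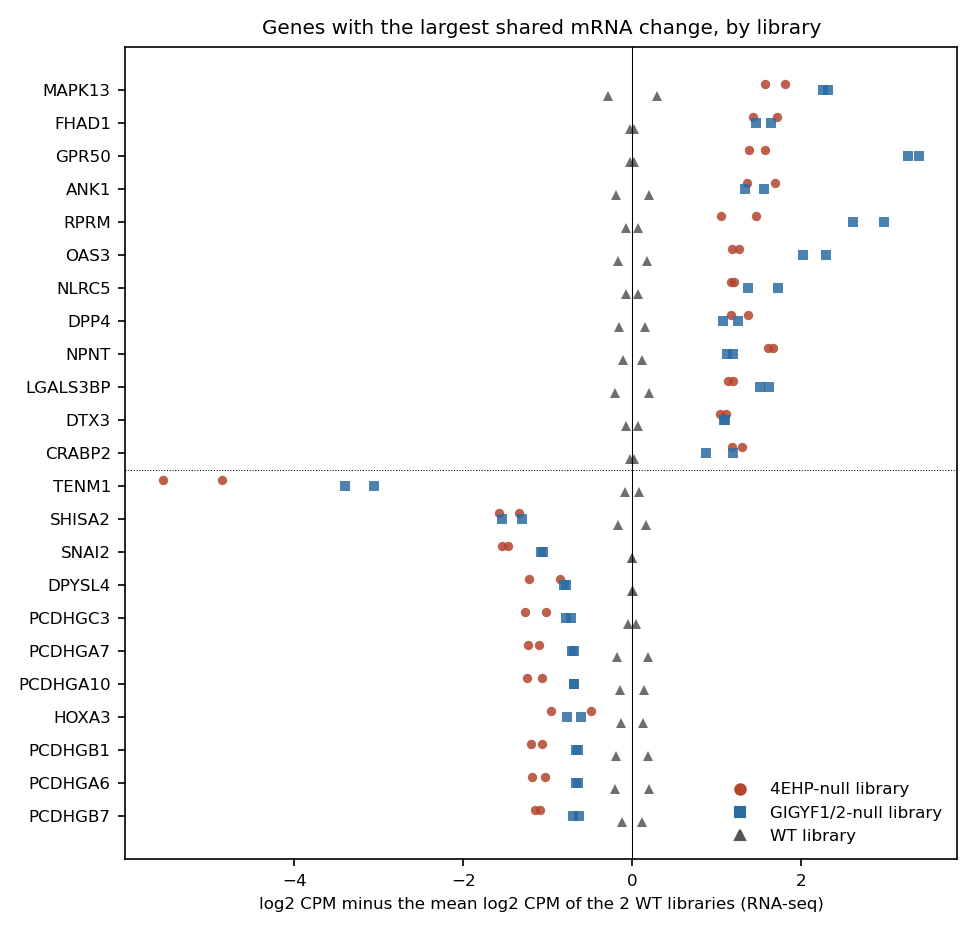
The mRNA level of the 12 higher and 11 lower genes described for their shared change is shown for each of the 6 RNA-seq libraries as log2 CPM minus the mean log2 CPM of the WT libraries. Circles are 4EHP-null libraries, squares GIGYF1/2-null libraries and triangles WT libraries; every knockout library lies on one side of both WT libraries, and GPR50, RPRM and TENM1 show the widest gaps between the knockouts.

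The 11 genes reported for their large shared fall were TENM1, SHISA2, SNAI2, DPYSL4, HOXA3 and 6 gamma protocadherins (PCDHGC3, PCDHGA7, PCDHGA10, PCDHGB1, PCDHGA6 and PCDHGB7). TENM1, a teneurin that mediates adhesion between cells, had 0.611 and 0.991 CPM in 4EHP-null cells, 3.45 and 2.72 CPM in GIGYF1/2-null cells, and 30.3 and 27.1 CPM in WT cells. It was nearly lost in both lines, 18.4-fold lower in their mean (log2 change -4.20 ± 0.14, adjusted p = 1.02e-08), and lower still in 4EHP-null than in GIGYF1/2-null cells. SNAI2, the transcription factor Slug of epithelial-mesenchymal transition, had 17.1 and 16.2 CPM in 4EHP-null cells, 22.5 and 22.7 CPM in GIGYF1/2-null cells, and 47.4 and 47.2 CPM in WT cells. The libraries of each genotype were close together, and the mean of the knockouts was 2.44-fold lower (log2 change -1.28 ± 0.08, adjusted p = 5.07e-06). SHISA2, a membrane protein of the Shisa family, had 6.39 and 7.51 CPM in 4EHP-null cells, 6.55 and 7.69 CPM in GIGYF1/2-null cells, and 16.9 and 21.4 CPM in WT cells in RNA-seq, with no separation between the lines. DPYSL4, a cytoplasmic protein of the collapsin response mediator family, had 9.14 and 7.12 CPM in 4EHP-null cells, 9.59 and 9.44 CPM in GIGYF1/2-null cells, and 16.5 and 16.6 CPM in WT cells, 1.88-fold lower in the mean of the knockouts. HOXA3, a homeobox transcription factor, had 10.6 and 7.66 CPM in 4EHP-null cells, 9.78 and 8.71 CPM in GIGYF1/2-null cells, and 16.3 and 13.6 CPM in WT cells, with overlap between the lines and no knockout library reaching WT.

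Of these 11 lower genes, 9 lay in runs of neighbouring genes that moved together, against 2 of the 12 higher genes. A run was a stretch in which the running median over 25 neighbouring genes passed 0.2 on the log2 scale in either knockout. The median included the gene itself. Adjacent genes with shared counts, such as the gamma protocadherins among the 9, therefore make much of their own run. Of all tested genes that could be placed, 17.8% lay in a run. The share was 49.8% of the one-sided lower genes (256 of 514) and 19.6% of the one-sided higher genes (108 of 550). Without the genes in runs, 345 higher and 221 lower one-sided calls were made. Over all placed genes, 92 lay in a run of the same direction in both knockouts. The part of the runs in the one-sided calls was not tested further. TENM1, SNAI2 and 10 of the 12 higher genes lay outside them.

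All 22 called members of the clustered protocadherins, cell-surface adhesion proteins of neurons that HEK293T cells also transcribe, were gamma genes and were lower. The list had 25 measured members, none called higher, and a median log2 change of -0.90. All 22 calls (88%) were one-sided, where 3.29% of all tested genes were called and one-sided lower. PCDHGC3 had 5.1 and 4.31 CPM in 4EHP-null cells, 6.05 and 6.26 CPM in GIGYF1/2-null cells, and 10.03 and 10.7 CPM in WT cells. PCDHGA10 had 2.93 and 2.59 CPM in 4EHP-null cells, 3.83 and 3.83 CPM in GIGYF1/2-null cells, and 5.59 and 6.78 CPM in WT cells. The other gamma genes had closely similar values, and the whole set was lower in 4EHP-null cells (median -1.14) and in GIGYF1/2-null cells (median -0.66), with no member called different between them. Gamma protocadherin transcripts share their constant exons, so reads may be counted for several genes and the 22 calls are not 22 separate measurements. All 25 members lie in runs of neighbours, where adjacent gamma genes make much of their own running median. Leaving out WT replicate 2 left 1 call.

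Interferon-stimulated and RNA-sensing genes are the products by which a cell detects and limits viral RNA. Of 39 measured members, 12 (30.8%) were called and one-sided higher and 2 (5.13%) lower, where 3.52% and 3.29% of all tested genes were, with a median log2 change of 0.31. For this and the following gene groups, rose and fell are said only of members called and one-sided. Leaving out either WT replicate left 5 of the 12, and leaving out 4EHP-null replicate 2 or GIGYF1/2-null replicate 1 left 7. Of the 12, 2 lay in runs of neighbours. A fit without all genes in runs called 4, so most of the calls lost there were of genes outside runs. Leukocyte markers, which could mark other cells in the cultures, summed to 11.4 and 11.7 CPM in 4EHP-null cells, 10.2 and 9.62 CPM in GIGYF1/2-null cells, and 10.3 and 10.8 CPM in WT cells, with 3 of 18 at 0 in every library and none of 6 measured called. In the Ribo-seq libraries they summed to 23.9 and 29.3 CPM in 4EHP-null cells, 25.2 and 26.4 CPM in GIGYF1/2-null cells, and 18.1 and 20.9 CPM in WT cells, above WT in all 4 knockout libraries, with none of 5 measured called and a median log2 change of 0.28. Their part in the interferon result was not tested. In bulk samples fewer cells of a type and less RNA per cell cannot be told apart.

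The promoters of the interferon genes OAS3, IFIH1 and LGALS3BP are shown since these had the 3 largest one-sided rises in the list. Each is the 250 bases before the RefSeq start in build GRCh38.p14, read 5′ to 3′ on the strand of the gene, and capitals mark the letters GAAANNGAAA or its reverse complement, a short form of the element that interferon-activated factors bind. Overlapping matches are joined. OAS3 lies on the plus strand at chr12:112938224-112938473, IFIH1 on the minus strand at chr2:162318685-162318934 and LGALS3BP on the minus strand at chr17:78979924-78980173.
OAS3: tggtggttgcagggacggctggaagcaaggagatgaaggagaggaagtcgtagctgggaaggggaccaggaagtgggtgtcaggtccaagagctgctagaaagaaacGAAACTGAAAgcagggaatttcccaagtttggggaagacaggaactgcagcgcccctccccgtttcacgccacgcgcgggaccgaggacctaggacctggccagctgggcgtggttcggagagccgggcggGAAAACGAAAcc
IFIH1: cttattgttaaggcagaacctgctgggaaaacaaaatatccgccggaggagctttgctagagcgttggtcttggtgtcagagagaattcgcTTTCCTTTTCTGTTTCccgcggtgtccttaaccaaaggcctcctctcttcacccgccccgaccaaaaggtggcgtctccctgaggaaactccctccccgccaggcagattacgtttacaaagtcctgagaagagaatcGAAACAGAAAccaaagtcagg
LGALS3BP: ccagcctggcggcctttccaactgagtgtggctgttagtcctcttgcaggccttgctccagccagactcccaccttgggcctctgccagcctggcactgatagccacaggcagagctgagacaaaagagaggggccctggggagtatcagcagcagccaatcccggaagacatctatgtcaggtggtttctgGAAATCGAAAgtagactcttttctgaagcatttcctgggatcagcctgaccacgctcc

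OAS3 held 2 matches, IFIH1 held 3 and LGALS3BP held 1. The same letters, on either strand, were in 1061 of 35116 promoters in the RefSeq table (3.02%), in 276 of 12074 tested genes that had a promoter there (2.29%), and in 18 of 33 interferon genes (54.5%). They were in 7 of the 10 interferon genes called higher that had a promoter in the table (70%) and in 11 of the 23 other interferon genes (47.8%). Over all one-sided called genes they were in 15 of 436 higher genes (3.44%) and 6 of 400 lower genes (1.5%). A match is a description of these letters and not a bound site.

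OAS3, an oligoadenylate synthetase that senses double-stranded RNA, had 12.2 and 12.9 CPM in 4EHP-null cells, 26.5 and 21.9 CPM in GIGYF1/2-null cells, and 4.78 and 6.05 CPM in WT cells. All knockout libraries lay above WT and those of GIGYF1/2-null cells lay highest (log2 change 1.20 in 4EHP-null cells and 2.15 in GIGYF1/2-null cells). IFIH1, the cytoplasmic RNA sensor MDA5, had 1.83 and 2.51 CPM in 4EHP-null cells, 8.2 and 5.23 CPM in GIGYF1/2-null cells, and 1.29 and 1.18 CPM in WT cells, with the same order (difference between the lines 1.63, adjusted p = 0.00069). LGALS3BP, a secreted glycoprotein that binds galectins, was the most abundant of the 3, with 172 and 179 CPM in 4EHP-null cells, 224 and 241 CPM in GIGYF1/2-null cells, and 68.1 and 90.2 CPM in WT cells (log2 change 1.35 ± 0.10, adjusted p = 1.6e-05).

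Other members rose less or mainly in one line. SAMD9, an interferon-induced antiviral protein, had 2.81 and 3.77 CPM in 4EHP-null cells, 1.96 and 1.34 CPM in GIGYF1/2-null cells, and 1.08 and 0.914 CPM in WT cells, highest in 4EHP-null cells. IFITM2, a membrane protein that restricts virus entry, had 17.8 and 17.8 CPM in 4EHP-null cells, 13.9 and 14.6 CPM in GIGYF1/2-null cells, and 9.52 and 12.1 CPM in WT cells. The remaining 7 were IFITM1, IFI44L, HERC5, USP18, TRIM25, DTX3L and EIF2AK2, with log2 changes from 0.28 for TRIM25 to 1.24 for IFI44L. HERC5, the ligase that attaches ISG15, had 26.1 and 28.8 CPM in 4EHP-null cells, 33 and 25.6 CPM in GIGYF1/2-null cells, and 19.96 and 22.3 CPM in WT cells. EIF2AK2, the kinase PKR that halts translation on double-stranded RNA, had 62 and 58.6 CPM in 4EHP-null cells, 54.6 and 49.3 CPM in GIGYF1/2-null cells, and 47.4 and 44.1 CPM in WT cells. These last genes rose by 1.34-fold and 1.22-fold, with adjusted p = 0.0398 and 0.0434. The 2 lower members were IRF7, the transcription factor that amplifies interferon output, and HLA-B, a class I antigen-presenting molecule. IRF7 rested on 6 and 3 counts in 4EHP-null cells, 41 and 46 counts in GIGYF1/2-null cells, and 48 and 51 counts in WT cells, a change in one line alone. HLA-B had 106 and 104 CPM in 4EHP-null cells, 129.8 and 129.7 CPM in GIGYF1/2-null cells, and 144 and 149.8 CPM in WT cells.

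**Figure D3:**
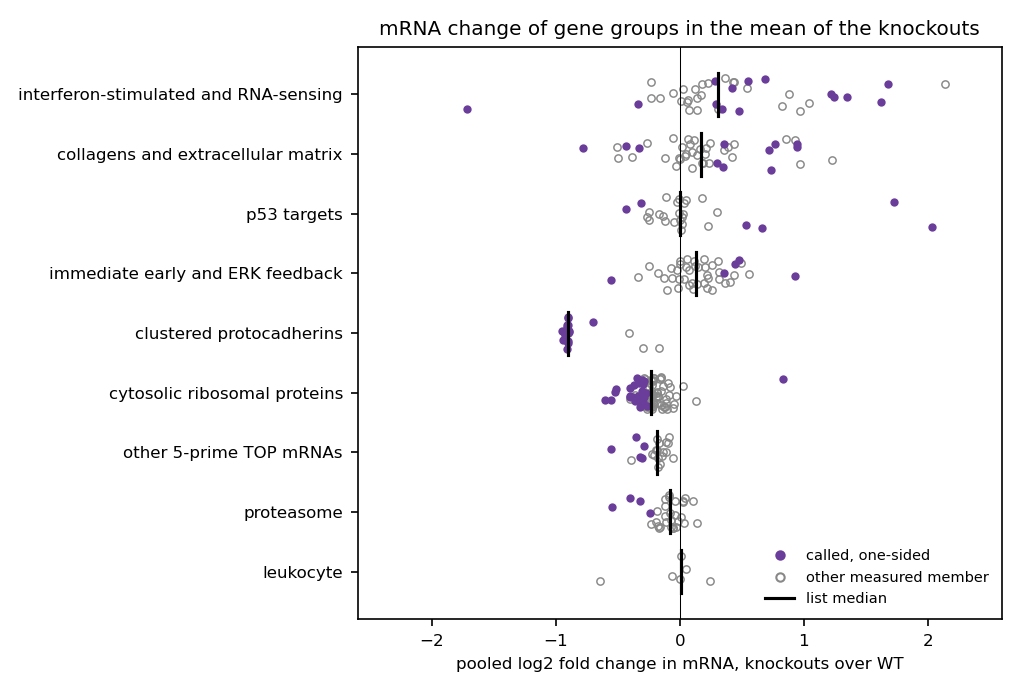
Pooled log2 fold change in mRNA, knockouts over WT, of each measured member of 9 gene groups, with called one-sided members filled, other members open and the group median as a bar. Interferon genes spread to the right (median 0.31), gamma protocadherins cluster at the left (list median -0.90) and cytosolic ribosomal proteins lie just below 0 (median -0.23).

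Extracellular matrix genes moved in both directions. Of 44 measured, 8 (18.2%) were called and one-sided higher (LOX, LAMB2, LAMA5, COL5A2, COL4A1, COL4A2, LAMA3 and COL4A4) and 3 (6.82%) lower (LAMA4, COL27A1 and FN1), against 3.52% and 3.29% of all tested genes, with a median log2 change of 0.17. LOX, which cross-links collagen, had 9.47 and 10.9 CPM in 4EHP-null cells, 20.4 and 19.6 CPM in GIGYF1/2-null cells, and 7.66 and 7.15 CPM in WT cells, with the larger rise in GIGYF1/2-null cells. LAMB2, a laminin subunit of basement membranes, had 44 and 42.7 CPM in 4EHP-null cells, 29.1 and 28.4 CPM in GIGYF1/2-null cells, and 19.3 and 22.2 CPM in WT cells, with the larger rise in 4EHP-null cells. LAMA4, another laminin subunit, had 4.74 and 7.66 CPM in 4EHP-null cells, 4.4 and 4.88 CPM in GIGYF1/2-null cells, and 8.78 and 9.55 CPM in WT cells. Leaving out WT replicate 1 or 2 left 3 and 4 higher calls and no lower call, and leaving out 4EHP-null replicate 1 or 2 left 5 and 4 higher calls.

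Of the 8 epithelial markers measured, the keratin genes KRT8 and KRT18 rose (25%) and none fell, where 3.52% and 3.29% of all tested genes did. KRT8 had 27.4 and 24.4 CPM in 4EHP-null cells, 31.9 and 30.6 CPM in GIGYF1/2-null cells, and 13 and 13.1 CPM in WT cells, 2.18-fold higher in the mean of the knockouts (log2 change 1.12 ± 0.10, adjusted p = 3.68e-05), and KRT18, its filament partner, had 58 and 57 CPM in 4EHP-null cells, 72.4 and 68.5 CPM in GIGYF1/2-null cells, and 47.9 and 49.6 CPM in WT cells. Of 15 mesenchymal genes, SNAI2 fell (6.67%) and SNAI1, the related factor Snail, rose (6.67%) at a low level. SNAI1 had 1.71 and 1.18 CPM in 4EHP-null cells, 2.5 and 1.84 CPM in GIGYF1/2-null cells, and 0.813 and 0.86 CPM in WT cells. A further 2 mesenchymal genes were called higher with overlapping libraries. HEK293T cells are known to express these keratins. Of 9 reference markers of the line, all were detected, and KRT8 and KRT18 were the only members called and one-sided (22.2%). A further 1 was called higher and 2 were called lower with overlapping libraries.

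Of 16 Wnt targets and feedback genes, 3 (18.8%) were called and one-sided higher and none was called and one-sided lower. The shares over all tested genes were 3.52% and 3.29%. A further 3 were called with overlapping libraries, each with its change in one line: CCND1, the cyclin D1 gene, was higher (log2 change 1.15 in GIGYF1/2-null and -0.11 in 4EHP-null cells), SFRP1, a secreted Wnt antagonist, was lower (-4.11 in 4EHP-null and 0.35 in GIGYF1/2-null cells), and the receptor gene TNFRSF19 was lower (-1.10 in GIGYF1/2-null and 0.25 in 4EHP-null cells). RNF43, a ligase that removes Wnt receptors from the cell surface, had 16.9 and 17.3 CPM in 4EHP-null cells, 14 and 14.6 CPM in GIGYF1/2-null cells, and 8.4 and 8.82 CPM in WT cells, 1.81-fold higher in the mean of the knockouts. NOTUM, a secreted enzyme that inactivates Wnt proteins, was low, with 0.733 and 0.724 CPM in 4EHP-null cells, 1.52 and 1.17 CPM in GIGYF1/2-null cells, and 0.136 and 0.269 CPM in WT cells. DKK1, a secreted Wnt inhibitor, was the third. AXIN2, a standard target of the pathway, had 15 and 13 CPM in 4EHP-null cells, 10.6 and 12.5 CPM in GIGYF1/2-null cells, and 15.5 and 15.7 CPM in WT cells (log2 change -0.29 ± 0.11, adjusted p = 0.121), so the 3 rises were not shared by every feedback gene. AXIN2 and the genes with overlapping libraries are named after their values were seen. Leaving out either WT replicate left 1 of the 3 rises.

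Among 27 p53 targets, RPRM, EDA2R, PHLDA3 and FDXR rose, and CCNG1 and GADD45B fell (14.8% and 7.41%, against 3.52% and 3.29% of all tested genes), with a list median of 0.00. EDA2R, a receptor of the tumour necrosis factor family, had 5.01 and 4.19 CPM in 4EHP-null cells, 5.73 and 4.18 CPM in GIGYF1/2-null cells, and 1.69 and 1.21 CPM in WT cells, at the same level in both lines (3.32-fold WT). The fallen genes moved less, with log2 changes of -0.32 for CCNG1 and -0.44 for GADD45B. Among 44 immediate early and ERK feedback genes, DUSP8, JUND, ATF3 and KLF10 rose and HES1 fell (9.09% and 2.27%, list median 0.13). DUSP8, a phosphatase that switches off stress kinases, had 8.5 and 7.28 CPM in 4EHP-null cells, 6.65 and 5.99 CPM in GIGYF1/2-null cells, and 3.9 and 3.52 CPM in WT cells. JUND, a subunit of the AP-1 transcription factor, had 36.9 and 34.8 CPM in 4EHP-null cells, 34.6 and 28.9 CPM in GIGYF1/2-null cells, and 25.2 and 23.3 CPM in WT cells. ATF3, a stress-induced transcription factor, was higher in 4EHP-null cells than in the other line (0.80 and 0.09 on the log2 scale). Without WT replicate 2 none of the 4 rises in this list was called, and without WT replicate 1 the p53 list had 2.

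Cytosolic ribosomal protein mRNAs were lower in the mean of the knockouts, mainly through 4EHP-null cells. In each line against WT, 48 were called lower in 4EHP-null cells (list median -0.35) and 4 in GIGYF1/2-null cells (list median -0.14). Of 84 measured, 25 (29.8%) were called and one-sided lower and 1 (1.19%) higher, where 3.29% and 3.52% of all tested genes were, with a median log2 change of -0.23, and 6 of the 25 lay in runs. RPS6, the subunit phosphorylated downstream of mTOR, had 2283 and 2463 CPM in 4EHP-null cells, 1939.8 and 1945 CPM in GIGYF1/2-null cells, and 2968 and 3201 CPM in WT cells. RPS12 had 885 and 929.5 CPM in 4EHP-null cells, 654 and 819.9 CPM in GIGYF1/2-null cells, and 1203 and 1275 CPM in WT cells. In both genes the knockout libraries lay below WT without overlap (1.44-fold and 1.52-fold lower in the mean). Both were lowest in GIGYF1/2-null cells, unlike the list median, and both were among the 6 in runs of neighbours. The member that rose, RPL22L1, a paralog of RPL22, had 129 and 138 CPM in 4EHP-null cells, 297 and 352 CPM in GIGYF1/2-null cells, and 121 and 113 CPM in WT cells, a change of GIGYF1/2-null cells (log2 change 1.47, against 0.20 in 4EHP-null cells). The count depended on the setting and on single libraries. Without the genes in runs 12 lower calls were made, and upper-quartile scaling gave 16. Leaving out WT replicate 1 or 2 left 6 and 2 lower calls, leaving out 4EHP-null replicate 1 or 2 left 13 and 15, and leaving out GIGYF1/2-null replicate 2 gave 58. Summed over the 88 genes in the table, GIGYF1/2-null replicate 2 stood at 111318 CPM, next to 110785 and 118058 CPM in WT cells, while the other 3 knockout libraries had 87572 to 97022 CPM.

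Other mRNAs carry the same 5′ TOP motif, the pyrimidine tract through which mTOR controls their translation. Of 22 measured, 5 (22.7%) were called and one-sided lower (TPT1, EIF3L, EIF4B, EEF1G and EEF1A1) and none was called higher, with a median of -0.18. For this group and the next, the shares over all tested genes were 3.29% called and one-sided lower and 4.91% called lower. TPT1, the translationally controlled tumour protein, had 1066 and 1115 CPM in 4EHP-null cells, 743 and 849 CPM in GIGYF1/2-null cells, and 1384 and 1359 CPM in WT cells. It was the 1 of the 5 that lay in a run of neighbours. EIF4B, a cofactor of the initiation helicase, had 422 and 445 CPM in 4EHP-null cells, 351 and 286 CPM in GIGYF1/2-null cells, and 477 and 475 CPM in WT cells, with its fall mostly in GIGYF1/2-null cells. Of 15 hosts of small nucleolar RNAs and related non-coding TOP transcripts, 8 were called lower, but only SNHG3, SNHG6, SNHG7 and ZFAS1 (26.7%) were also one-sided, and the pseudogene RPLP0P2 was called higher with overlapping libraries. The list median was -0.29, with -0.49 in 4EHP-null and -0.04 in GIGYF1/2-null cells. SNHG6 had 48.4 and 44.6 CPM in 4EHP-null cells, 54 and 61.7 CPM in GIGYF1/2-null cells, and 68.5 and 69.2 CPM in WT cells. Leaving out either WT replicate left 1 of the 5 TOP mRNAs and none of the 4 host genes, while leaving out GIGYF1/2-null replicate 2 gave 8 one-sided lower calls in each group.

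Decay and initiation factors, the groups nearest to the function of 4EHP and GIGYF, had small numbers of one-sided calls, at shares of 0% to 6.82% where 3.29% of all tested genes were lower and 3.52% higher. Of 40 genes of deadenylation, decapping and decay, 2 (5%) were called and one-sided lower, 2 more were called lower with overlapping libraries, and none was called higher. PNRC2, which couples decapping to nonsense-mediated decay, had 109 and 101 CPM in 4EHP-null cells, 127 and 125 CPM in GIGYF1/2-null cells, and 151 and 138 CPM in WT cells, and CNOT4, a ligase associated with the CCR4-NOT complex, had 22.7 and 25.5 CPM in 4EHP-null cells, 16.5 and 17.2 CPM in GIGYF1/2-null cells, and 25.9 and 26.9 CPM in WT cells, each with its change mainly in one line. Of 44 genes of translation initiation, EIF3L, EIF4B and EIF4EBP2 fell (6.82%) and none was called higher, and of 16 genes of nonsense-mediated decay UPF3B alone was called, and it rose (6.25%). List medians were between -0.08 and 0.01 for these 3 groups. Leaving out either WT replicate left none of the 3 falls among initiation genes, and leaving out WT replicate 1 left none among decay genes.

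Apart from the zinc finger genes, the stress, growth and other groups that follow had between 0 and 5 one-sided calls in either direction. Over all tested genes 3.52% rose and 3.29% fell, and for several groups the share that fell was above this. Of 44 targets of the integrated stress response, ATF3 rose (2.27%) and SLC38A2, PSPH and CBS fell (6.82%), and of 28 genes of the unfolded protein response DNAJB9 and SEL1L fell (7.14%). Leaving out either WT replicate left none of these 5 falls. In the integrated stress response list the lines moved apart. Against WT, 10 were called higher and 1 lower in 4EHP-null cells (median 0.18). In GIGYF1/2-null cells 0 were called higher and 10 lower (median -0.17). Of the 44, 25 differed between the lines, which the pooled median of -0.02 does not show. A further 2 were called higher and 1 lower in the mean with overlapping libraries. SEL1L, an adaptor of degradation at the endoplasmic reticulum, had 52.5 and 58.7 CPM in 4EHP-null cells, 63.2 and 69.2 CPM in GIGYF1/2-null cells, and 79.3 and 77 CPM in WT cells. Of 46 genes of G1/S and replication none was called and one-sided, and of 33 mitotic genes PRC1, which bundles spindle microtubules, fell (3.03%). Of 32 proteasome genes 4 fell (12.5%), all in runs of neighbours, and leaving out either WT replicate left 1 of them. Of 77 mitochondrial ribosomal proteins 5 fell (6.49%), and 2 without the genes in runs. Of 74 nuclear genes of oxidative phosphorylation NDUFA5 and NDUFC2 fell (2.7%). In glycolysis and hypoxia, ENO2 and NDRG1 rose and HK2, SLC2A1 and BNIP3 fell among 32 (6.25% and 9.38%). ENO2, a neuronal enolase, had 34.7 and 29.6 CPM in 4EHP-null cells, 32 and 25.6 CPM in GIGYF1/2-null cells, and 17.8 and 13.8 CPM in WT cells. Of 438 ZNF zinc finger genes 23 rose (5.25%) and 11 fell (2.51%), and 13 of the 23 lay in runs. No replication-dependent histone was called and one-sided higher. Low histone genes could pass the filter through the genotype in which they were high, so the median of those that passed does not describe the whole list. The median log2 change of the 31 that passed the filter, of 73 in the table, was 1.43, with 2.18 in 4EHP-null and 0.76 in GIGYF1/2-null cells. Before the test 8 lay above WT in all 4 knockout libraries and 1 below, while in the pooled test HIST3H2A was called and one-sided lower and HIST1H1C was called higher with overlapping libraries. In each line against WT, 9 were called higher in 4EHP-null cells and 2 in GIGYF1/2-null cells. Summed over the 73 histone genes in the table, the level was uneven, at 99.6 and 235 CPM in the 4EHP-null libraries, 188 and 201 CPM in the GIGYF1/2-null libraries, and 125 and 125 CPM in the WT libraries. The 4EHP-null libraries were thus both the lowest and the highest.

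Footprints followed the mRNA of the one-sided genes in direction, in libraries separate from those that chose them. Of the 550 higher genes, 512 passed the Ribo-seq filter. Of these, 468 (91.4%) had more footprints in the mean of the knockouts, 219 (42.8%) were one-sided higher and 1 one-sided lower, where 9.72% of all tested genes lay above WT in footprints. Of the 514 lower genes, 481 passed, 444 (92.3%) had fewer footprints, 218 (45.3%) were one-sided lower and 4 one-sided higher, where 9.41% of all genes lay below. Across 13257 genes tested in both assays the pooled log2 changes had a Pearson r of 0.496 and a Spearman rho of 0.505, as a description across genes, which are not independent replicates. The labels do not say whether both assays used the same cultures.

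**Figure D4:**
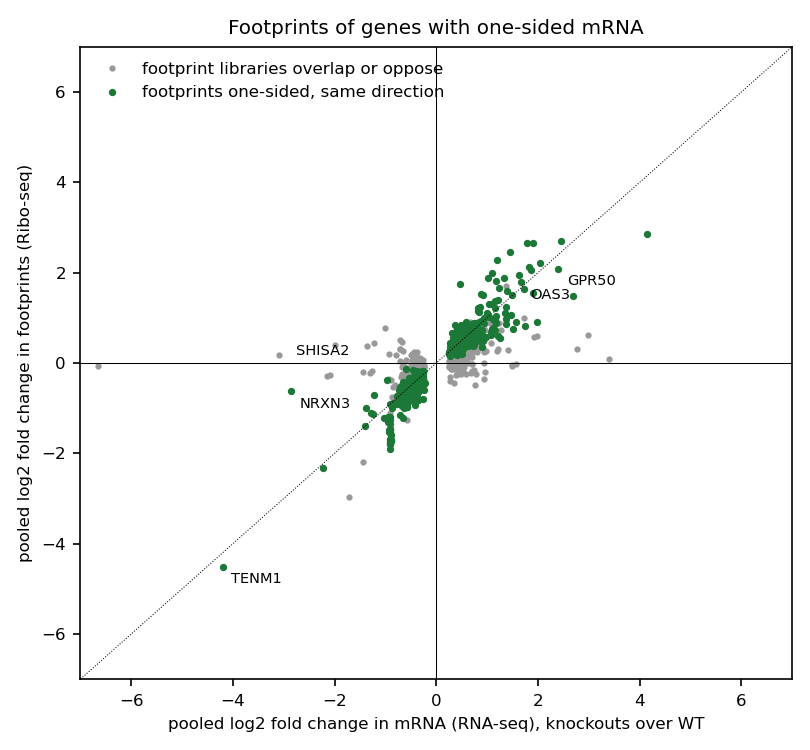
The 993 genes with one-sided called mRNA that were measured in both assays, with the pooled log2 fold change in mRNA on the x axis and in footprints on the y axis, knockouts over WT; the dotted line marks equal change. Green points are one-sided in footprints in the same direction; 91.8% of the points have the same sign in both assays, and TENM1 and GPR50 lie near the line while SHISA2 and NRXN3 lie off it.

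Tested on their own, footprints gave fewer calls. In edgeR 117 of 14722 genes were called (0.795%), 68 higher (0.462%) and 49 lower (0.333%), of which 50 (0.34%) and 34 (0.231%) were one-sided. With the replicate number as a block, 525 were higher and 693 lower, of which 359 and 404 were one-sided. The block assumes that same-numbered libraries belong together, which the labels do not state. With the 4 knockout libraries as 1 group edgeR called 0 (1193 at an unadjusted p under 0.05), limma-voom 0 (1165 unadjusted) and DESeq2 15.

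All 12 genes with the largest shared rise in mRNA were one-sided higher in footprints too, and 8 were called. GPR50 had 24.4 and 28.3 CPM in 4EHP-null cells, 102 and 113 CPM in GIGYF1/2-null cells, and 13.2 and 11.9 CPM in WT cells of footprints (log2 change 2.09 ± 0.15, adjusted p = 6.86e-05). OAS3 had 9.13 and 10.1 CPM in 4EHP-null cells, 23.8 and 18.3 CPM in GIGYF1/2-null cells, and 4.64 and 3.69 CPM in WT cells, and LGALS3BP had 267 and 378 CPM in 4EHP-null cells, 399 and 453 CPM in GIGYF1/2-null cells, and 166 and 176 CPM in WT cells. In each of the 3 the knockout libraries stood clear of WT. NPNT had 9.13 and 10.4 CPM in 4EHP-null cells, 7.76 and 8.58 CPM in GIGYF1/2-null cells, and 2.32 and 3.41 CPM in WT cells (log2 change 1.60 ± 0.22). FHAD1, ANK1, NLRC5 and DTX3 kept the direction without a call. All 12 one-sided higher interferon genes had more footprints in the mean of the knockouts, 8 of them one-sided, where 9.72% of all tested genes lay above WT. In Ribo-seq 4 of the 36 interferon genes measured were called and one-sided, against 0.34% of all tested genes. With the block it was 7 of them, against 359 of 14722 tested genes one-sided higher.

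Of the 11 lower genes, 9 were one-sided lower in footprints and 5 were called. TENM1 had 0.315 and 0.136 CPM in 4EHP-null cells, 1.46 and 0.885 CPM in GIGYF1/2-null cells, and 11.6 and 12 CPM in WT cells of footprints. SNAI2 had 10.6 and 8.86 CPM in 4EHP-null cells, 11.3 and 15.1 CPM in GIGYF1/2-null cells, and 21 and 27.5 CPM in WT cells (log2 change -1.11 ± 0.17, adjusted p = 0.0118). DPYSL4 had 8.82 and 7.49 CPM in 4EHP-null cells, 13.5 and 8.58 CPM in GIGYF1/2-null cells, and 23.6 and 19.5 CPM in WT cells. In all 3 the fall in footprints was of the size of the fall in mRNA. SHISA2 differed, with 4.72 and 4.36 CPM in 4EHP-null cells, 5.09 and 6.28 CPM in GIGYF1/2-null cells, and 5.65 and 5.96 CPM in WT cells of footprints (log2 change -0.19 ± 0.20, adjusted p = 0.701), where its mRNA was 2.73-fold lower. The difference between its changes, 1.26 ± 0.24 on the log2 scale, did not pass (adjusted p = 0.108). The 22 protocadherins were all one-sided lower in footprints, 2 of them called, and 21 with the block. Their reads may be counted for several genes here too, so these are not 22 separate measurements. Some rest on few counts, such as PCDHGA10 with 2 and 4 in 4EHP-null, 9 and 7 in GIGYF1/2-null, and 10 and 21 in WT cells. Of the 25 ribosomal protein mRNAs that fell, 22 had fewer footprints and 2 were one-sided lower. The list's median footprint change was -0.03. RPS6 had 2410.3 and 1967 CPM in 4EHP-null cells, 1999.7 and 1940.4 CPM in GIGYF1/2-null cells, and 2407 and 2325 CPM in WT cells of footprints, with overlap between the groups.

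Translation efficiency (TE), the footprint change minus the mRNA change, was called for few genes in the mean of the knockouts. In edgeR 6 of 13257 genes were higher (0.0453%) and 0 lower, with 814 at an unadjusted p under 0.05, and DESeq2 called 21 and 3. NRXN3, a presynaptic adhesion molecule, had mRNA at 0.306 and 0.305 CPM in 4EHP-null cells, 6.96 and 8.07 CPM in GIGYF1/2-null cells, and 9.62 and 12.3 CPM in WT cells and footprints at 6.77 and 7.36 CPM in 4EHP-null cells, 12.5 and 12.4 CPM in GIGYF1/2-null cells, and 15.6 and 13.5 CPM in WT cells. Its TE rose by 2.22 ± 0.24 (SE), of which 4.11 was in 4EHP-null cells and 0.33 in GIGYF1/2-null cells, so the mean describes one line. It rests on 10 and 8 mRNA counts in 4EHP-null cells.

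CTC1, a component of the complex that maintains telomere ends, had 20.9 and 19.6 CPM in 4EHP-null cells, 19 and 18.5 CPM in GIGYF1/2-null cells, and 14.7 and 13.6 CPM in WT cells of mRNA and 399.8 and 295 CPM in 4EHP-null cells, 112 and 131 CPM in GIGYF1/2-null cells, and 65.1 and 56.9 CPM in WT cells of footprints (TE change 1.30 ± 0.17, adjusted p = 0.00702). C3orf62, an open reading frame of unknown function, had 8.74 and 8.72 CPM in 4EHP-null cells, 7.85 and 7.75 CPM in GIGYF1/2-null cells, and 8.98 and 7.69 CPM in WT cells of mRNA and 1901 and 1523 CPM in 4EHP-null cells, 880.2 and 711 CPM in GIGYF1/2-null cells, and 335 and 352 CPM in WT cells of footprints (TE change 1.78 ± 0.18, adjusted p = 0.000832). In both genes footprints were one-sided higher and highest in 4EHP-null cells, while the mRNA changed far less or overlapped. LOC100506127 had nearly the same footprint counts as C3orf62 in every library, such as 12138 against 12073 in 4EHP-null replicate 1, so their levels are uncertain where the counting could give reads to both. The remaining 2, TSHZ2 and ZNF700, were below the level set for named genes.

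Some genes changed in footprints with mRNA that did not differ at an unadjusted p under 0.05. Besides C3orf62 and LOC100506127, these were the small nucleolar RNAs SNORD17 and SNORD77, which were higher, and AHNAK2, a giant scaffold protein, which was lower. SNORD17 had 38.9 and 32.8 CPM in 4EHP-null cells, 25.1 and 29.3 CPM in GIGYF1/2-null cells, and 12 and 12.5 CPM in WT cells in the Ribo-seq libraries and SNORD77 had 51.8 and 53 CPM in 4EHP-null cells, 15.8 and 26.5 CPM in GIGYF1/2-null cells, and 10.3 and 12.4 CPM in WT cells. Small nucleolar RNAs are not translated, so these counts are not footprints of translation. AHNAK2 had 1.89 and 2.73 CPM in 4EHP-null cells, 6.79 and 8.67 CPM in GIGYF1/2-null cells, and 9.997 and 15.1 CPM in WT cells, with a lower level in 4EHP-null than in GIGYF1/2-null cells.

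**Figure D5:**
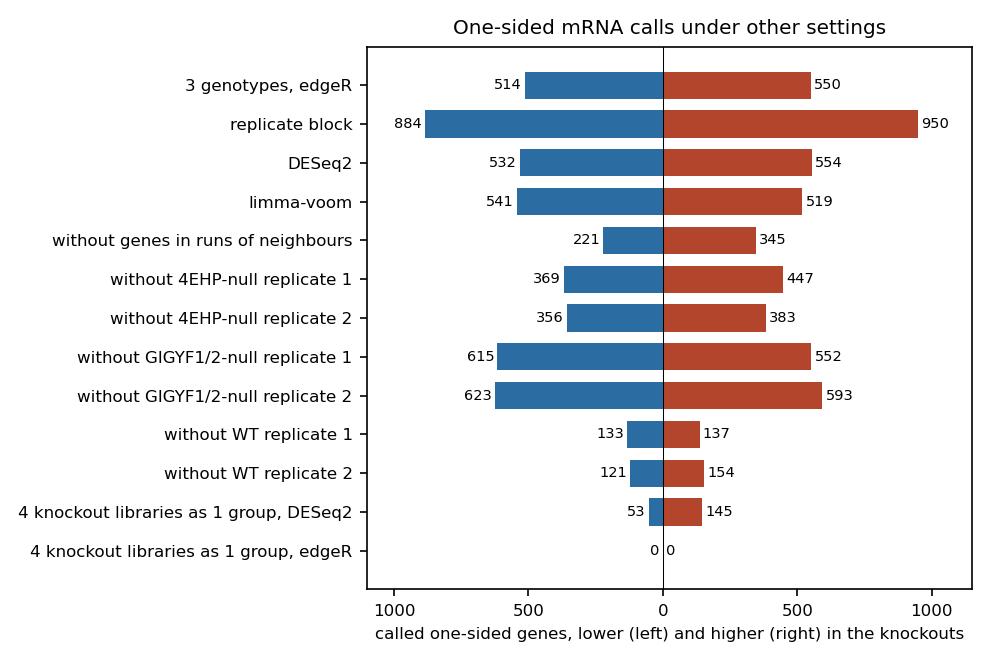
Number of genes called and one-sided in RNA-seq under 13 settings, with genes higher in the knockouts drawn to the right and genes lower drawn to the left. The 3-genotype edgeR fit gives 550 and 514, fits without a WT replicate give 121 to 154, and the fit with the knockout libraries as 1 group gives 0 in edgeR.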

How the data were processed

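RNA-seq and Ribo-seq libraries of 4EHP-null, GIGYF1/2-null and WT HEK293T cells were compared, 2 libraries per genotype and assay. The authors deposited raw read counts per gene symbol, not normalized. Per the submitters' processing notes the tools were Bowtie2, TopHat2 and edgeR and the build hg19; not given in the sources used here: assignment of reads to genes, annotation and strand option. Levels of overlapping and antisense genes are therefore uncertain. The authors' comparison tables were not used. Where nothing says that replicates were separate cultures, p-values measure only the spread between these libraries.

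Counts were filtered with filterByExpr, scaled by TMM and fitted in R 4.3.3 with edgeR 4.0.16 (quasi-likelihood F-test, two-sided, Benjamini-Hochberg adjusted p under 0.05 over all tested genes), with 3 genotypes in 1 fit per assay and the contrast of the mean of both knockouts minus WT. The spread within genotypes, as edgeR's common coefficient of variation, was 0.0862 for mRNA and 0.119 for footprints, and it was 0.170 and 0.177 with the knockouts as 1 group. Both knockouts against each other were tested in the same fit, and TE in a fit over 12 libraries with an interaction term. Errors beside log2 changes are standard errors. Alternatives were RLE and upper-quartile scaling, 2 other filters, DESeq2 1.42.0, the replicate number as a block, leaving out each library, no genes in runs, identical genes counted once and the knockouts as 1 group, and, chosen after seeing the data, limma-voom (limma 3.58.1) and DESeq2 with the knockouts as 1 group. The code was checked on simulated data.

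Same-numbered Ribo-seq libraries deviated weakly together from their group means (correlations 0.224, 0.149 and 0.314 for the 3 pairs of genotypes), so the block values are given beside the Ribo-seq counts. The labels state no pairing in either assay. In Ribo-seq replicate 2 was the deeper library of each genotype, so pairing and depth cannot be told apart. Neighbours were read from RefSeq's order of genes in another build, where 94.9% of the symbols were found.

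Named genes were the 3 targets; the 12 higher and 12 lower genes with the largest shared change among called one-sided protein-coding genes with an average log2 CPM of at least 2; up to 2 per direction of each of 32 lists by adjusted p; up to 6 per direction in TE; and up to 4 per direction called in Ribo-seq with unadjusted RNA-seq p above 0.05. Of the 12 lower genes, 1 is not reported here. Members, lists and rules were chosen with earlier results of these data known. Further genes, such as BST2 and IFIH1, were named after their values were seen. Sequences are from RefSeq, GRCh38.p14.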

Additional observations from a re-analysis of the deposited data

Results flagged for a closer look

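Of the 82 named genes called in the pooled RNA-seq comparison, 40 differed between the 2 knockouts in the same fit (edgeR, adjusted p under 0.05), 19 with a higher and 21 with a lower level in GIGYF1/2-null than in 4EHP-null cells. For these genes the mean of the knockouts stands for levels that are not alike. Each value below is the log2 difference of GIGYF1/2-null minus 4EHP-null cells.

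Among genes that were higher in the mean of the knockouts, the rise was larger in GIGYF1/2-null cells for GPR50 (1.85), RPRM (1.54), RPL22L1 (1.28), LOX (0.97), OAS3 (0.95), NDRG1 (0.60), MAPK13 (0.59), LGALS3BP (0.41) and KRT18 (0.29). It was larger in 4EHP-null cells for the zinc finger genes ZNF488 (-1.58) and ZNF22 (-0.92), for ATF3 (-0.72), LAMB2 (-0.59) and NPNT (-0.48), and for the valyl-tRNA synthetase VARS (-0.51). Of these higher genes, RPRM, ZNF488, ZNF22 and VARS lay in runs of neighbours. ZNF488, for one, had 30.5 and 31.1 CPM in 4EHP-null cells, 10.3 and 10.4 CPM in GIGYF1/2-null cells, and 9.69 and 10.003 CPM in WT cells in RNA-seq, so that only 4EHP-null cells stood apart.

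Among genes that were lower in the mean, the fall was larger in 4EHP-null cells for NRXN3 (4.61), IRF7 (3.09), TENM1 (1.97), EIF4E2 (1.46), HIST3H2A (0.63), COL27A1 (0.62), SNAI2 (0.44), SNHG6 (0.32), HLA-B (0.31) and PNRC2 (0.26). The value of IRF7 rests on 6 and 3 counts in 4EHP-null cells. EIF4E2 is the gene deleted in that line. HIST3H2A lay in a run of neighbours.

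The fall was larger in GIGYF1/2-null cells for DNAJB9 (-0.76), GIGYF1 (-0.69), HK2 (-0.68), MRPL57 (-0.61), SMAD9 (-0.56), PSMC2 (-0.53), CNOT4 (-0.51) and TPT1 (-0.45). Smaller differences in the same direction were those of EIF4B (-0.44), NDUFA5 (-0.42), PSPH (-0.42), SLC38A2 (-0.33), POMP (-0.31), RPS6 (-0.29) and NDUFC2 (-0.26). Except for HK2, EIF4B, SLC38A2 and NDUFC2, these genes with the larger fall in GIGYF1/2-null cells lay in runs of neighbours. They are therefore not all separate differences, and the part of the runs was not tested. HK2, the hexokinase that starts glycolysis, had 96.9 and 98.6 CPM in 4EHP-null cells, 65.7 and 55.9 CPM in GIGYF1/2-null cells, and 103 and 101 CPM in WT cells in RNA-seq, with 4EHP-null cells close to WT.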

How the results depend on the processing

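No named gene called in the main fit or in an alternative had opposite directions in those 2 fits. Sign changes of genes called in neither fit were not counted, and single genes were not followed in the comparison between knockouts. Of the named genes called, 35 of 82 in RNA-seq, 7 of 23 in Ribo-seq and 2 of 4 in TE kept their call in every fit with 3 genotypes. The largest effect came from the fit: with the 4 knockout libraries as 1 group, edgeR and limma-voom gave 0 calls in each assay and DESeq2 gave 145 higher and 53 lower in RNA-seq and 13 and 2 in Ribo-seq, all one-sided. Leaving out 1 library gave 153 to 659 higher and 151 to 929 lower genes in RNA-seq, of which 137 to 593 and 121 to 623 were one-sided. In Ribo-seq it gave 9 to 172 and 4 to 114, of which 9 to 159 and 3 to 83 were one-sided. Between the knockouts it gave 973 to 1659 higher in GIGYF1/2-null cells and 1265 to 2097 lower, and in TE 2 to 9 higher and 0 to 21 lower. The lowest pooled counts were those without a WT replicate, where the lone WT library is assumed to vary like the other groups.

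With the replicate number as a block, RNA-seq gave 1291 higher and 1557 lower genes (950 and 884 one-sided), Ribo-seq 525 and 693 (359 and 404), and TE 27 and 16. In RNA-seq the same-numbered libraries of 4EHP-null and WT cells had a correlation of 0.0701, against 0.153 and 0.180 for the other pairs, so the numbers were not taken to pair them. Without a filter on low counts RNA-seq gave 1011 and 1255, and Ribo-seq 377 and 349 (243 and 227 one-sided). With an average log2 CPM of at least 2, Ribo-seq gave 30 lower genes, and 32 and 21 one-sided. Without genes in runs, RNA-seq gave 382 and 279 (345 and 221), Ribo-seq 28 and 19 (23 and 10), and the comparison between knockouts 1086 and 1225. With limma-voom 33 genes were one-sided higher in Ribo-seq. With DESeq2, TE gave 21 and 3. The causes were not tested, except that fewer samples or genes entered some fits. RLE and upper-quartile scaling and identical genes counted once left every such count within 1.5 times. With 2 libraries per genotype, small changes of low genes were not detectable at this depth.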

Other observations

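Several one-sided called genes lay below the level set for named genes and are given here after their values were seen. IL15, a cytokine of lymphocytes, had 0.611 and 0.61 CPM in 4EHP-null cells, 0.506 and 0.76 CPM in GIGYF1/2-null cells, and 0.0678 and 0.0807 CPM in WT cells in RNA-seq, with the knockouts overlapping each other and none near WT, while its footprints were not called (log2 change 0.61, adjusted p = 0.35). SLC4A10, a bicarbonate transporter of neurons, had 1.19 and 0.571 CPM in 4EHP-null cells, 1.55 and 1.26 CPM in GIGYF1/2-null cells, and 0.0678 and 0.0538 CPM in WT cells. HORMAD1, a protein of meiotic chromosome axes that some cancer cells switch on, went the other way, with 0 and 0 CPM in 4EHP-null cells, 0.0633 and 0.0585 CPM in GIGYF1/2-null cells, and 1.08 and 1.18 CPM in WT cells. HCLS1, a cortactin-related protein of blood cells, had 0.0611 and 0.0762 CPM in 4EHP-null cells, 0.19 and 0.205 CPM in GIGYF1/2-null cells, and 1.22 and 1.43 CPM in WT cells, and UNCX, a homeobox factor, had 0.183 and 0 CPM in 4EHP-null cells, 0.538 and 0.322 CPM in GIGYF1/2-null cells, and 1.86 and 2.29 CPM in WT cells. At these levels few reads stand behind each value, and no fold is given.

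ZNF700, a zinc finger gene, had 0 counts of mRNA in all 4 knockout libraries, against 12 and 14 counts in WT cells. Its footprints did not follow, with 3.46 and 5.18 CPM in 4EHP-null cells, 4.37 and 3.45 CPM in GIGYF1/2-null cells, and 3.62 and 4.82 CPM in WT cells. Its called TE change therefore depends on how the fit treats 0 counts. TSHZ2, another zinc finger gene, moved in opposite directions in the assays and alike in both lines. Its mRNA had 1.38 and 1.52 CPM in 4EHP-null cells, 1.46 and 1.58 CPM in GIGYF1/2-null cells, and 3.05 and 2.9 CPM in WT cells, below WT in all 4 knockout libraries, while its footprints had 4.57 and 4.63 CPM in 4EHP-null cells, 4.37 and 4.42 CPM in GIGYF1/2-null cells, and 2.32 and 2.84 CPM in WT cells, above WT in all 4. The TE change was 1.78 ± 0.29 (log2, SE; adjusted p = 0.044), of which 1.85 was in 4EHP-null and 1.71 in GIGYF1/2-null cells.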
